A study of Mus musculus with 10 samples.

Results

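Neurotrophins are secreted growth factors, and the 8 genes described here encode 2 of them, the receptors that bind them in the striatum, and a coreceptor for a related growth factor. The genes are Bdnf, Ntf3, Ntrk2, Ntrk3, Ngfr, Sort1, Sorcs2 and Gfra1. They were chosen by gene name among the 47632 gene rows of the deposited expression table, with earlier results of these data known. All 8 were found in the table, and 5 of them reached the mean of 1 FPKM over the 10 libraries that was required for testing, against 15905 genes in all. FPKM is a read fragment count divided by transcript length and by the library's total.

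The study sequenced RNA purified from the striatum, a deep forebrain region, of R6/2 hemizygous mice and of isogenic wild-type controls, all at 11 weeks of age, with 5 libraries in each group. R6/2 is a model of Huntington's disease in which a transgene expresses the first exon of human huntingtin with an expanded CAG repeat. The transgene is carried in all cells and holds only a fragment of the human gene, which limits it as a model of the human disease. Whether separate animals gave the 5 libraries of a group is not in the labels, so the p-values speak for the spread among these libraries, part of which may be technical.

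Brain-derived neurotrophic factor (Bdnf) signals through the receptor tyrosine kinase TrkB (Ntrk2), and neurotrophin-3 (Ntf3) through TrkC (Ntrk3). The precursor forms of the neurotrophins bind a second kind of receptor, p75NTR (Ngfr), together with the VPS10-domain proteins sortilin (Sort1) and SorCS2 (Sorcs2), which also sort neurotrophins inside the cell. In the adult striatum most Bdnf protein is made in cortical neurons and carried along their axons, while the spiny projection neurons, the main striatal cell type, carry TrkB. Gfra1 encodes the coreceptor that presents glial cell line-derived neurotrophic factor (Gdnf) to its kinase partner.

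Sort1 and Sorcs2 fell in the R6/2 striatum, and Gfra1 passed the threshold only narrowly. Ntrk2 and Ntrk3 narrowly missed it, and Bdnf, Ntf3 and Ngfr were too scarce to test. Of the 5 genes tested, 3 passed the threshold in the direction of lower levels in R6/2 (Sort1, Sorcs2 and Gfra1, by limma on log2(FPKM + 1), two-sided, Benjamini-Hochberg adjusted p under 0.05), while 9.11% of all tested genes were called lower. The Gfra1 call was lost in 18 of 20 alternative analyses, while Ntrk2 and Ntrk3 were called in 3 and 4 of 21. None of the 5 was called higher, against 5.00% of all tested genes, and 0 were higher at an unadjusted limma p under 0.05. At that unadjusted threshold all 5 tested genes were lower, but the share of all tested genes at it was not counted, so this count has no background. In 4 of the 5 (Ntrk2, Sort1, Sorcs2 and Gfra1) every R6/2 library lay below every control library, which held for 8.58% of all tested genes. As the list was chosen with earlier results known, these counts describe it and are no test of it. The median log2 change over all tested genes was 0.0010. In bulk tissue, fewer cells of a type and less RNA per cell cannot be told apart.

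**Figure D1:**
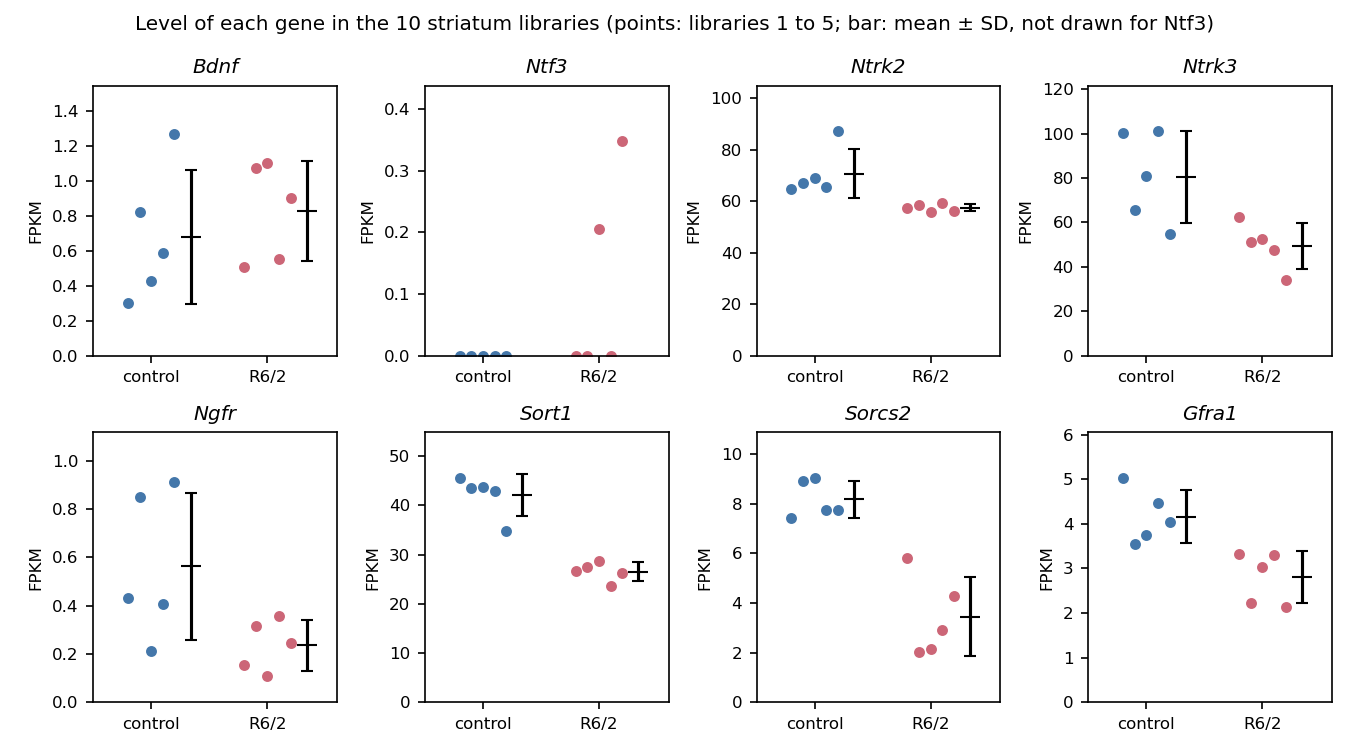
FPKM of each of the 8 genes in the 5 control (blue) and 5 R6/2 (red) libraries, in library order from left to right, with the mean and SD beside the points except for Ntf3, which was listed at 0 in 8 libraries. The R6/2 points of Ntrk2, Sort1, Sorcs2 and Gfra1 lie below all control points, while those of Bdnf, Ntrk3 and Ngfr overlap with the controls.

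The levels spanned a wide range. Averaged over the 10 libraries, Ntrk3 had 65.1 FPKM and Ntrk2 64.1 FPKM, at or above 94.7% and 94.6% of tested genes. Sort1 followed at 34.3 FPKM, Sorcs2 at 5.81 FPKM and Gfra1 at 3.48 FPKM. Bdnf averaged 0.755 FPKM, Ngfr 0.400 FPKM and Ntf3 0.0553 FPKM, all below the testing limit. Within each group the neighbouring genes Ntrk2 and Ntrk3 had overlapping values across libraries, and so did Bdnf and Ngfr in the controls. Between Sort1 and Sorcs2 there was no overlap in either group.

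Bdnf, the ligand of TrkB, was low in both groups. It measured 0.300, 0.823, 0.428, 0.585 and 1.27 FPKM in Controls 1 to 5, and 0.508, 1.07, 1.10, 0.552 and 0.905 FPKM in R6/2 libraries 1 to 5. The groups overlapped over most of their range, with the lowest and the highest value both among the controls. The means were 0.681 ± 0.382 FPKM in controls and 0.828 ± 0.283 FPKM in R6/2 (SD, n = 5). The difference on the log2(FPKM + 1) scale was 0.14, with a limma Benjamini-Hochberg adjusted p of 0.694 when the filter on low values was dropped (SE 0.17).

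The low Bdnf values rested on few read fragments. Low FPKM values of many genes in this table fall on steps whose size gives the relative worth of 1 fragment in each library. Such steps were found for 74.8% of low genes with 1 annotated transcript and for 27.9% of those with more, a class that includes Bdnf. On its steps the Bdnf values correspond to 9, 22, 13, 14 and 27 fragments in Controls 1 to 5 and to 21, 22, 33, 15 and 24 fragments in R6/2 1 to 5. The sums were 85 in controls and 115 in R6/2. The exact 95% Poisson interval, which covers counting error only, ran from 4.12 to 17.1 for the 9 fragments of Control 1 and from 22.7 to 46.3 for the 33 of R6/2 3. The step size implies a transcript of 3815 bases, within the range of 3707 to 4266 bases of the annotated Bdnf transcripts. The interval of Control 5, from 17.8 to 39.3, did not meet that of Control 1 although fewer fragments were mapped in Control 5, so these 2 controls differed by more than counting error. The difference between the groups was within the spread of the libraries.

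Bdnf is transcribed from several alternative starts that share 1 coding exon. On GRCm38 the gene lies on the plus strand of chr2:109674700-109727007 (Ensembl ENSMUSG00000048482.14), with 11 annotated transcripts, and the deposited value pools all of them. The 250 bases before 3 of its RefSeq starts (GRCm38.p6) are shown because they are unlike each other while the table gives them 1 shared value. None of these windows holds an annotated exon. Capitals mark GC boxes (GGGCGG on either strand) and the core TGACG of the cAMP response element, read on either strand.
Bdnf, start 1, chr2:109674450-109674699, plus strand: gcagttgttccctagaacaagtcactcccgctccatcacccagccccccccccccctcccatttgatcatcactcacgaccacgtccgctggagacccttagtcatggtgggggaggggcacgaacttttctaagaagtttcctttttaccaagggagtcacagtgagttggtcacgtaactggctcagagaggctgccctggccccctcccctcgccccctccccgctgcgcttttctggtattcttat
Bdnf, start 2, chr2:109676782-109677031, plus strand: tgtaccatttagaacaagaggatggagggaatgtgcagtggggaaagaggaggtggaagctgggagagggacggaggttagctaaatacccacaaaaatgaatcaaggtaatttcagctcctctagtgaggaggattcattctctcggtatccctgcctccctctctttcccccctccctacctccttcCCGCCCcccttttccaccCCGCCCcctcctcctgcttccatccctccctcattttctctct
Bdnf, start 3, chr2:109692186-109692435, plus strand: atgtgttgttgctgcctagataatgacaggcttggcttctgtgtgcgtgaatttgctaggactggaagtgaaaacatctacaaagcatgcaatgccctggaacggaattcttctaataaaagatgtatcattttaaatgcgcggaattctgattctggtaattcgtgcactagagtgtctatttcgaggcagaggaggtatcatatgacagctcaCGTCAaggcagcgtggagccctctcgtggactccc
The third window ends 1 base before an annotated Bdnf transcript begins, and its core lies on the opposite strand (CGTCA as printed). The second window holds 2 GC boxes, and the first holds none of the motifs searched.

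Motifs were searched in the 12 windows of 250 bases available for 5 of the 8 genes (7 for Bdnf, 2 for Ntf3, and 1 each for Ngfr, Ntrk2 and Gfra1). The full cAMP response element TGACGTCA was in 0 of the 12, against 1.55% of all 32851 windows of this length. The EGR site GCGGGGGCG was also in 0, against 2.57%. The GC box was in 5 of the 12, against 32.7%, and the core TGACG, which is part of the full element, in 1, against 17.8%. Letters absent from these windows say nothing about binding elsewhere.

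Ntf3, the ligand of TrkC, was listed at 0 in all 5 controls and in R6/2 1, 2 and 4. It measured 0.206 FPKM in R6/2 3 and 0.348 FPKM in R6/2 5. An exact 0 in this table can be a failed estimate, so no fold change is given, and the limma fit without the filter on low values gave a Benjamini-Hochberg adjusted p of 0.427. Ntf3 lies on chr6:126101412-126166910, minus strand.

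Of the 6 other ligands of the neurotrophin and Gdnf families that were listed, 0 reached the testing limit. Ntf5, the other ligand of TrkB, was listed at 0 in every library. Nrtn, Artn and Pspn were listed at 0 in some libraries of each group and did not exceed 0.845 FPKM.

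Gdnf, the ligand that Gfra1 binds, was the exception among these ligands, and it is described because of its values. It measured 0.672, 0.754, 1.15, 0.975 and 0.747 FPKM in Controls 1 to 5 and 0.231, 0.309, 0.142, 0.273 and 0.120 FPKM in R6/2 1 to 5. All R6/2 values lay below all controls, with means of 0.860 ± 0.198 FPKM in controls and 0.215 ± 0.0820 FPKM in R6/2 (SD, n = 5). On the step scale these values correspond to a sum of 108 fragments in the controls and of 29 in R6/2. With no filter on low values the log2 change was -0.61 (SE 0.091, limma Benjamini-Hochberg adjusted p = 0.00349), in a fit that called 4.61% of 29024 genes lower.

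Ntrk2, which encodes TrkB, was lower in every R6/2 library but did not pass the threshold. It measured 64.9, 67.1, 69.0, 65.4 and 87.3 FPKM in Controls 1 to 5 and 57.4, 58.4, 56.0, 59.4 and 56.3 FPKM in R6/2 1 to 5. The R6/2 libraries were close together and all below the controls, while Control 5 stood above the other controls. The R6/2 mean was 81.3% of the control mean, with a log2 change of -0.29 (SE 0.086, limma Benjamini-Hochberg adjusted p = 0.0557). An exact permutation test of this gene alone, two-sided, gave an unadjusted p of 0.00794, the smallest that 5 against 5 libraries can give. Without Control 5 the log2 change was -0.21 and the limma Benjamini-Hochberg adjusted p was 0.0173. With values rescaled to the total of protein-coding genes the change was -0.17 (adjusted p = 0.199, limma), and after quantile normalization it was -0.14 (adjusted p = 0.279, limma).

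The gene lies on chr13:58806569-59133970, plus strand, and its annotated coding transcripts include forms of 821 codons, which include the kinase, and shorter ones of 476 codons. The deposited value adds these forms together, so it cannot tell the full receptor from the truncated ones. The promoter window is shown because TrkB is the receptor for Bdnf. It holds none of the motifs searched.
Ntrk2, chr13:58806319-58806568, plus strand: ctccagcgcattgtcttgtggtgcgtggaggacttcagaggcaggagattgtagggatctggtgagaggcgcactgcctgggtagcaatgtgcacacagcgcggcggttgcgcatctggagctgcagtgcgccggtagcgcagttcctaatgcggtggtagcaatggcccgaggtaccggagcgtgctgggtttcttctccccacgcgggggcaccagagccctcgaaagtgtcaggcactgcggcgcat

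Ntrk3, which encodes TrkC, had the widest spread of the abundant receptors. It measured 100.3, 65.5, 80.8, 101.1 and 54.8 FPKM in Controls 1 to 5, and 62.5, 51.1, 52.6, 47.8 and 33.9 FPKM in R6/2 1 to 5. Control 5, the lowest control, lay below R6/2 1, so the groups overlapped in that 1 library. The means were 80.5 ± 20.6 and 49.6 ± 10.3 FPKM (SD, n = 5), and the log2 change of -0.68 (SE 0.21) had a limma Benjamini-Hochberg adjusted p of 0.0572. Without Control 5 the change was -0.80 (adjusted p = 0.0253, limma). Ntrk3 lies on chr7:78175959-78738012, minus strand, and its annotated coding transcripts include forms of 825 codons and 612 codons, which the value also pools.

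Control 5 moved the kinase receptors in opposite directions, with the highest Ntrk2 and the lowest Ntrk3 of the controls. The log2 ratio of Ntrk2 to Ntrk3 was -0.62, 0.03, -0.23, -0.62 and 0.66 in Controls 1 to 5 and -0.12, 0.19, 0.09, 0.31 and 0.72 in R6/2 1 to 5. The ranges of the groups overlapped, and Control 5 had the highest ratio of the controls. The difference of the group means was 0.39 (exact permutation test, two-sided, p = 0.183, 0.243 after Benjamini-Hochberg adjustment over 4 ratios). Without Control 5 it was 0.59 (exact permutation test, two-sided, p = 0.0317, 0.0635 after adjustment).

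Ngfr, which encodes p75NTR, was low in both groups. It measured 0.433, 0.849, 0.213, 0.407 and 0.914 FPKM in Controls 1 to 5 and 0.157, 0.315, 0.108, 0.358 and 0.244 FPKM in R6/2 1 to 5. The highest R6/2 values fell within the range of the controls. The R6/2 mean was 42.0% of the control mean, and the log2 difference was -0.32 (exact permutation test of this gene alone, two-sided, unadjusted p = 0.0476). Fitted without the filter on low values, the limma Benjamini-Hochberg adjusted p was 0.226. The smallest whole numbers that fit its steps are 22 fragments summed over the controls and 10 over R6/2. The step would imply 1176 bases where the single annotated transcript has 3446, so the true numbers may be a multiple of these. Ngfr lies on chr11:95568818-95587735, minus strand.

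Sort1, which encodes sortilin, fell in every R6/2 library. It measured 45.6, 43.5, 43.7, 42.9 and 34.7 FPKM in Controls 1 to 5 and 26.7, 27.5, 28.7, 23.7 and 26.2 FPKM in R6/2 1 to 5. Every R6/2 library was below every control, including Control 5, which was the lowest control. Sort1 fell to 63.1% of the control mean, with a log2 change of -0.64 (SE 0.087, limma Benjamini-Hochberg adjusted p = 0.00106). It passed the threshold in 20 of 21 alternative analyses. The exception was an analysis of 3 libraries against 3, described with Sorcs2, in which the change was -0.64 and the limma Benjamini-Hochberg adjusted p was 0.0529. Among all tested genes 11.8% had a change at or below that of Sort1. Sort1 lies on chr3:108284082-108361511, plus strand, and shares 338 exonic bases with the antisense gene Gm12523, whose mean was 0.0708 FPKM.

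Sorcs2 had the largest change among the 5 tested genes. It measured 7.44, 8.91, 9.04, 7.76 and 7.75 FPKM in Controls 1 to 5 and 5.81, 2.04, 2.16, 2.94 and 4.28 FPKM in R6/2 1 to 5. The controls were close together, while the R6/2 libraries were spread out below them, with R6/2 1 nearest to the controls. Sorcs2 fell to 42.1% of the control mean, with a log2 change of -1.11 (SE 0.21, limma Benjamini-Hochberg adjusted p = 0.00749). Of all tested genes 5.16% had a change at or below it. With a pseudocount of 5 FPKM, which shrinks changes of genes at this level, it was -0.66 (adjusted p = 0.00562, limma). Sorcs2 lies on chr5:36017180-36398139, minus strand.

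Levels of cortical excitatory neuron genes moved with some of these results. A cortical signal was computed as the mean z score of 4 cortical excitatory neuron genes, among them Slc17a7, Neurod6 and Tbr1. It was -1.33, -0.07, -1.70, -0.04 and -0.12 in Controls 1 to 5 and 0.24, 1.09, 1.48, 0.15 and 0.31 in R6/2 1 to 5. This mean score was thus higher in every R6/2 library than in every control. The longer list of 10 cortical markers was less uniform, with 2 of 9 tested called higher and 1, Lamp5, called lower (log2 change -0.97, limma Benjamini-Hochberg adjusted p = 0.00599), and its summed level overlapped, at 66.5 to 103 FPKM in controls and 82.4 to 154 FPKM in R6/2. Sorcs2 was lowest in R6/2 2 and 3, where this signal was highest. The other libraries did not follow this order. Controls 3 and 1, with the lowest signals, had the highest and the lowest Sorcs2 of the controls (9.04 and 7.44 FPKM). R6/2 4, with the lowest R6/2 signal, had less Sorcs2 (2.94 FPKM) than R6/2 1 and 5 (5.81 and 4.28 FPKM). With the signal as a covariate the Sorcs2 change was -0.80 (limma Benjamini-Hochberg adjusted p = 0.208). Without Controls 1 and 3 and R6/2 2 and 3, a choice made after seeing the data, it was -0.81 (adjusted p = 0.159, limma). The Sort1 change under the covariate was -0.63 (adjusted p = 0.0357, limma). Because the signal was higher in every R6/2 library, the covariate fit can hardly separate signal from group and estimates both less precisely. A call lost in that fit therefore does not show an effect of the signal.

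**Figure D2:**
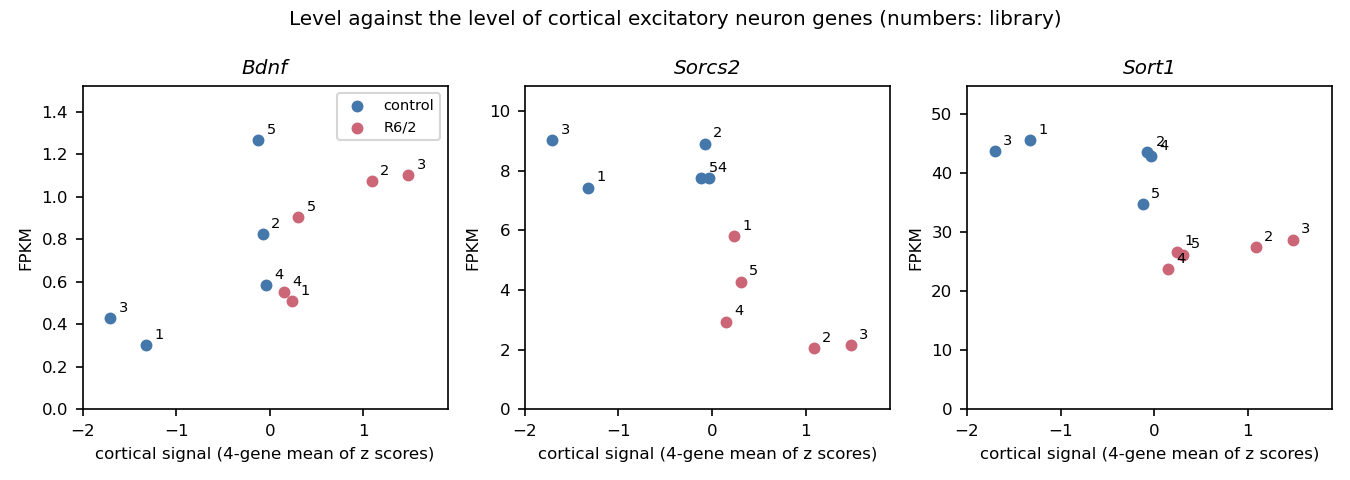
FPKM of Bdnf, Sorcs2 and Sort1 against the cortical signal (mean z score of 4 cortical excitatory neuron genes) in control (blue) and R6/2 (red) libraries, numbered by library. Bdnf was lowest in Controls 1 and 3, which had the lowest signal, Sorcs2 was lowest in R6/2 2 and 3, which had the highest, and Sort1 lay between 23.7 and 28.7 FPKM in all R6/2 libraries.

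Bdnf varied in part with this signal within groups. Its lowest control values were in Controls 1 and 3 and its highest R6/2 values in R6/2 2 and 3, with Control 5 as the exception at a signal of -0.12. The log2 ratio of Bdnf to the mean of the 4 cortical genes was -2.38, -2.57, -2.04, -2.80 and -2.21 in Controls 1 to 5 and -3.03, -3.04, -3.26, -2.95 and -2.73 in R6/2 1 to 5. The R6/2 ratios were lower except that Control 4 fell within their range. The difference was -0.60 (exact permutation test, two-sided, p = 0.0159, 0.0635 after Benjamini-Hochberg adjustment over the 4 ratios), which did not pass the threshold. Mean Bdnf itself was not lower in R6/2 (log2 difference 0.14), while the cortical signal was higher in every R6/2 library. The ratio alone cannot tell a change in Bdnf from a change in the cortical genes. The part of cortical tissue or cortical RNA in these differences was not tested.

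The ratio of Sort1 to Sorcs2 did not pass either. On the log2 scale the ratio of Sort1 to Sorcs2 was between 2.03 and 2.47 in the controls and between 2.02 and 3.23 in R6/2. The difference was 0.47 (exact permutation test, two-sided, p = 0.111, 0.222 after Benjamini-Hochberg adjustment over the 4 ratios). The fourth ratio, of Bdnf to Ntf3, is not interpreted, because Ntf3 was listed at 0 in 8 libraries.

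Gfra1, the Gdnf coreceptor, was at the edge of the threshold. It measured 5.02, 3.54, 3.74, 4.46 and 4.03 FPKM in Controls 1 to 5 and 3.31, 2.23, 3.03, 3.31 and 2.13 FPKM in R6/2 1 to 5. The groups did not overlap, but the gap between the lowest control and the highest R6/2 library was small. Gfra1 fell to 67.4% of the control mean, with a log2 change of -0.45 (SE 0.13, limma Benjamini-Hochberg adjusted p = 0.0480). It kept a value under 0.05 in only 2 of 20 alternative analyses, over which the limma Benjamini-Hochberg adjusted p ran from 0.0486 to 0.385. With a pseudocount of 5 FPKM the change was -0.23 (adjusted p = 0.0509, limma). Leaving out any 1 library other than R6/2 4 lost the call.

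Gfra1 lies on chr19:58235604-58455909, minus strand, and shares 416 exonic bases with the antisense gene Gm16277. The strand setting, not given in the sources used here, is needed to assign reads in the shared bases. Gm16277 had 3.18 ± 1.31 FPKM in controls and 3.98 ± 1.08 FPKM in R6/2 (SD, n = 5), a log2 change of 0.29 (limma Benjamini-Hochberg adjusted p = 0.533). Bdnf likewise shares 896 exonic bases with an antisense gene, Gm45346, which was not analysed here.

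**Figure D3:**
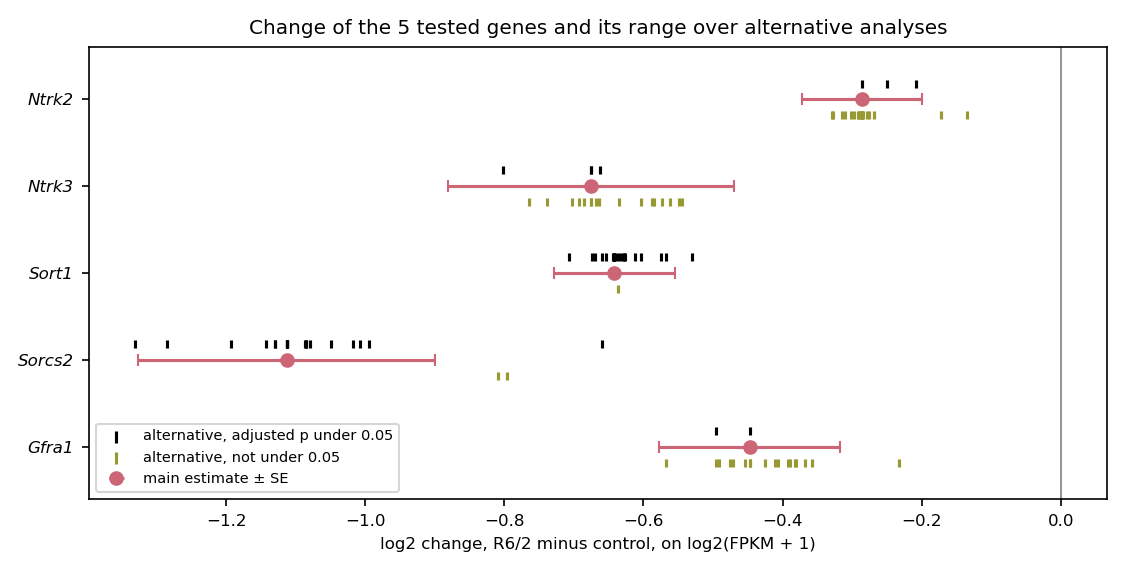
Log2 change, R6/2 minus control, of the 5 tested genes on the log2(FPKM + 1) scale, with the main estimate and its SE (red) and the estimates of the alternative analyses, drawn above the line where the adjusted p was under 0.05 and below it otherwise. All estimates are below 0, and Sort1 has 1 alternative estimate below its line while Gfra1 has 2 above.

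Markers of several cell types, but not of all, were lower in the same libraries, against 9.11% of all tested genes called lower. All 14 spiny projection neuron markers were called lower (limma, Benjamini-Hochberg adjusted p under 0.05), and their summed level was 1933 to 2462 FPKM in controls and 313 to 483 FPKM in R6/2. Astrocytes express truncated TrkB, and 5 of 10 astrocyte markers were called lower, with sums of 1138 to 1386 and 798 to 944 FPKM. For myelin, 7 of 10 markers were called lower, with sums of 1563 to 1761 and 731 to 1124 FPKM. For cholinergic interneurons, the striatal cells that release acetylcholine, 3 of 4 tested markers were called lower. The 7 listed cholinergic markers summed to 12.2 to 16.8 and 2.98 to 7.70 FPKM, with 3 of them, among which Slc18a3 and Gbx2, listed at 0 in at least 1 library. For GABAergic interneurons, 4 of 5 tested markers were called lower, with sums of 328 to 587 FPKM in controls and lower sums in every R6/2 library. Microglia had 1 of 9 tested markers called lower, and for oligodendrocyte precursors, mural and meningeal cells, endothelium and choroid plexus 0 were called lower by limma (2 of 7 precursor markers and 0 of the others were lower at an unadjusted p under 0.05). The summed level was still lower in every R6/2 library for oligodendrocyte precursors (36.3 to 45.0 FPKM in controls, 24.3 to 35.3 FPKM in R6/2). The same held for microglia, with a small gap (68.0 to 84.9 FPKM in controls, 61.0 to 67.0 FPKM in R6/2). The microglial marker C1qa was listed at 0 in at least 1 library, and an exact 0 can be a failed estimate. In the endothelial list 1 of 9 was called higher. The endothelial, mural and meningeal, and choroid plexus sums overlapped between the groups. The part of these cell types in the receptor changes was not tested.

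Of 10 other receptors and coreceptors listed, 6 were tested and 1 was called lower (median log2 change -0.06). This was Sorcs1, another SorCS receptor, at 5.97 ± 0.423 FPKM in controls and 3.64 ± 0.574 FPKM in R6/2 (SD, n = 5). Its log2 change was -0.59 (SE 0.10, limma Benjamini-Hochberg adjusted p = 0.00456), and its groups did not overlap. The third member, Sorcs3, had a change of -0.18 (adjusted p = 0.456, limma). Gfra2, the coreceptor for neurturin, had -0.24 (adjusted p = 0.367, limma) and Gfra4 0.22 (adjusted p = 0.332, limma). Ret, the kinase partner of the Gfra proteins, was below the testing limit, with at most 0.636 FPKM in any library.

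The lists of other pathway genes are read against the 9.11% of all tested genes called lower and the 5.00% called higher. Among genes that process and secrete the precursors, 1 of 8 tested was called higher and 1 lower (median -0.05). Pcsk6, a proprotein convertase, fell with a log2 change of -0.64 (SE 0.17, adjusted p = 0.0369, limma). Serpini1, which encodes the protease inhibitor neuroserpin, rose by 0.69 (SE 0.20, adjusted p = 0.0469, limma). Serpini1 lost its call in 13 of 21 alternatives, with changes down to 0.17, and Pcsk6 in 13 of 20. Cpe, a sorting receptor for the regulated secretory pathway, had -0.88 (SE 0.31, adjusted p = 0.0936, limma).

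Of 42 tested Trk adaptor and signalling genes, 9 were called lower and 1 higher (median -0.07). Pdpk1, the kinase that activates Akt, had 38.2 ± 1.56 FPKM in controls and 20.3 ± 2.89 FPKM in R6/2 (SD, n = 5), and fell with a log2 change of -0.89 (adjusted p = 0.000283, limma). Rps6ka5, a nuclear kinase that acts downstream of the MAP kinases, fell with a log2 change of -0.98 (adjusted p = 0.00087, limma), and Hras, the small GTPase, with -0.89 (adjusted p = 0.00145, limma). Sos1, a guanine nucleotide exchange factor for Ras, was the gene called higher, by 0.27 (adjusted p = 0.0279, limma). Without Controls 1 and 3 and R6/2 2 and 3, the list had 2 genes called lower and 0 higher (limma; 2 higher at an unadjusted p under 0.05). Of all 15905 tested genes, 457 were called lower and 106 higher in that setting. After protein-coding rescaling the list had 9 lower and 4 higher, against 1136 lower and 1522 higher of all 15905.

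Of 16 tested p75NTR partners and effectors, 1 was called lower and 1 higher (median 0.18). Tnfrsf19, a receptor related to p75NTR that can join the Nogo receptor, fell with a log2 change of -0.35 (adjusted p = 0.0221, limma). Zfp369, a zinc finger protein that binds p75NTR, rose by 0.47 (adjusted p = 0.0350, limma). Maged1, an adaptor of p75NTR, had 0.32 (adjusted p = 0.0518, limma). The count depended on the scaling, with 5 higher and 0 lower after protein-coding rescaling (1 lower at an unadjusted limma p under 0.05) and 4 higher and 1 lower after quantile normalization. Of all 15905 tested genes, rescaling called 1522 higher and 1136 lower, and quantile normalization 1111 higher and 1277 lower. Tnfrsf19 lost its call in 8 and Zfp369 in 9 of 21 alternatives.

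Genes that respond to Bdnf and to neuronal activity were mostly lower. Of 13 tested, 10 were called lower and 0 higher (limma; median -1.25), and at an unadjusted limma p under 0.05 the count higher was also 0. Homer1, a postsynaptic scaffold, had 85.1 ± 15.6 FPKM in controls and 26.4 ± 1.95 FPKM in R6/2 (SD, n = 5), and fell with a log2 change of -1.63 (adjusted p = 3.36e-05, limma). The transcription factors Egr1 and Egr2 fell with log2 changes of -1.48 (adjusted p = 7.4e-05, limma) and -2.56 (adjusted p = 8.08e-05, limma). Without Controls 1 and 3 and R6/2 2 and 3, 6 of the 13 were called lower, against 457 of all 15905 tested genes. Markers of spiny projection neurons were lower in the same libraries. Npy, called lower here with a log2 change of -1.25 (adjusted p = 0.000308, limma), is also counted among the GABAergic interneuron markers. The part of these cell types in the changes was not tested.

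For regulators of Bdnf transcription and genes of its transport, the share called lower was near that of all tested genes. Of 11 tested transcription regulators 1 was called lower and 0 higher by limma (2 higher at an unadjusted p under 0.05; median -0.05), the CREB coactivator Crtc1, with a log2 change of -0.60 (adjusted p = 0.00298, limma). Usf2, an E-box binding factor, had -0.47 (adjusted p = 0.125, limma). Of 9 tested genes of Bdnf vesicle transport 1 was called lower and 0 higher by limma (1 higher at an unadjusted p under 0.05; median -0.06), the kinesin heavy chain Kif5a, with -0.34 (adjusted p = 0.0185, limma). Klc1 had 0.25 (adjusted p = 0.0568, limma) and Kif5c -0.35 (adjusted p = 0.0687, limma).

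After protein-coding rescaling, which raised the median of all genes to 0.093, the median log2 changes of the other receptors, processing, Trk signalling, transcription regulator and transport lists were above 0, between 0.03 and 0.06.

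**Figure D4:**
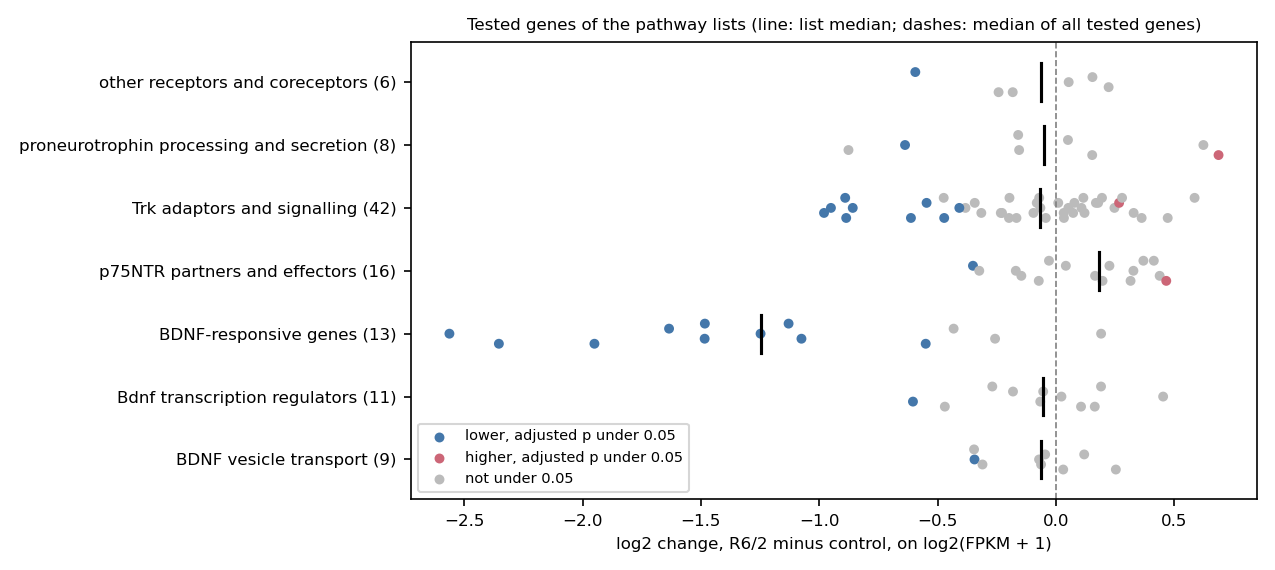
Log2 change, R6/2 minus control, of each tested gene in 7 pathway lists, with blue and red points for genes called lower and higher and grey points for the rest. The line of each list is its median, which lies at -1.25 for the genes that respond to Bdnf and between -0.07 and 0.18 for the other lists.

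The genes whose profiles over the 10 libraries were most like each tested gene were found among 7044 protein-coding genes by the root-mean-square difference of log2(FPKM + 1) from the control mean. For Ntrk2 these were Ptprz1 (0.0693) and Ankrd17 (0.0776), and for Ntrk3 they were Atp8b2 (0.173) and Arhgdib (0.183). For Sort1 the nearest were Scd2 (0.0735), a lipid desaturase gene, and Slc24a2 (0.0945), an ion exchanger gene. Sorcs2 was nearest to Cdh13 (0.172) and Tmem94 (0.198), and Gfra1 to Rnd2 (0.104) and Mllt6 (0.107). The profiles nearest to Ntrk3 and Sorcs2 were thus farther from them than those of Ntrk2 and Sort1. Among the genes named beside the 8, Sorcs1, Usf2, Klc1, Arhgdib, Tmem94 and Rnd2 share exonic bases with a gene on the opposite strand, and Gfra4, Pcsk6, Rps6ka5 and Scd2 with one on the same strand, so their values may include each other's reads.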

How the data were processed

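RNA from 10 mouse striatum samples, 5 R6/2 and 5 control, was sequenced, and the authors deposited 1 table of FPKM values. Per the labels' protocols, RNA was amplified with NuGEN Ovation RNA-Seq v2 before Nextera library preparation. STAR 2.4.0, Cufflinks, Cuffdiff and GRCm38 are named in the submitters' processing notes. IDs were matched to GENCODE M21.

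A mean of at least 1 FPKM was required, and limma 3.58.1 (R 4.3.3) with a mean-variance trend, tested on simulated data, was fitted to log2(FPKM + 1), two-sided, with Benjamini-Hochberg adjustment over 15905 genes and a threshold of 0.05. This scale understates changes of low genes. The 4 ratios were compared with exact permutation tests (Python 3.11.15). The 8 genes and all lists were chosen with earlier results of these data known. Named genes are the 8, the 3 smallest p-values of each pathway list, members called against most of their list, and the 2 nearest profiles of each tested gene (mean of at least 5 FPKM). Sorcs3, Gdnf, Ntf5, Nrtn, Artn, Pspn, Ret and Gm16277, the GC box and the TGACG core were added after values were seen. Some items are not reported here. Promoter sequences are RefSeq's.

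The relative worth of 1 fragment was the mode of the ratio to Control 1 among genes under 1 FPKM. With the smallest whole numbers within 0.1 of a step, 74.8% of 3280 low genes with 1 annotated transcript and 27.9% of 4000 with more resolved. The search was tested on simulated data. From transcript lengths, the FPKM denominators came to 5390000 to 10800000 fragments per library. Intervals cover counting error only. Alternatives covered pseudocount, filter, scaling, weights, cortical signal, replicate block and left-out libraries.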

Additional observations from a re-analysis of the deposited data

Results flagged for a closer look

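Among the 8 genes and the 4 ratios, in 5 libraries per group, 2 values lay far from the rest of their group. Control 5 had 87.3 FPKM of Ntrk2, and its gap to the next control made up 0.816 of the range of the controls. Control 5 also had 34.7 FPKM of Sort1, the lowest control, with a gap of 0.749 of the range. The limit for 5 libraries is 0.71, and chance flags about 1 in 20 groups. Control 5 was also the highest control for Bdnf and Ngfr and the lowest for Ntrk3. No explanation for this library was tested.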

How the results depend on the processing

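No alternative reversed the direction of Ntrk2, Ntrk3, Sort1, Sorcs2 or Gfra1. The number called lower was 3 and fell to 1 (Sort1) with the cortical signal as a covariate, a signal that separated the groups fully. An analysis chosen after seeing the data, without Controls 1 and 3 and R6/2 2 and 3, leaves 3 libraries a group. In it the number called lower fell to 0. The number called lower stayed between 2 and 4 in the other alternatives, including those that left out 1 library each. The number called higher stayed at 0. Ntrk2 and Ntrk3 were also called with a minimum mean of 5 FPKM (adjusted p = 0.0413 and 0.0449, limma) and with array weights (adjusted p = 0.0450 and 0.0454, limma). No pairing of samples by library number was seen (correlations of same-numbered libraries from -0.053 to 0.049, with 1 of 5 controls best correlated with its own number). A weak pairing could go unseen in 5 libraries a group. With the replicate block 3 genes were called lower (Ntrk3, Sort1 and Sorcs2), and the ratio differences of same-numbered pairs had the same means, with a smallest possible exact p of 0.0625.

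The Bdnf to Ntf3 value is that of Bdnf alone in the 8 libraries that list Ntf3 at 0, and says nothing about Ntf3. Its difference of -0.0050 became -0.33 without the 4 libraries and -0.43 at a pseudocount of 0.1 FPKM, changed sign with a pseudocount of 5 FPKM (0.0071), quantile normalization (0.0022) and protein-coding rescaling (0.037), and ran from -0.091 to 0.11 when 1 library was left out. The Ntrk2 to Ntrk3 difference ran from 0.27 to 0.59 when 1 library was left out. The Sort1 to Sorcs2 difference ran from 0.34 to 0.64 when 1 library was left out, and passed without R6/2 1 (0.64, exact permutation test, adjusted p = 0.0476). It depended on the pseudocount, at 0.67 with 0.1 FPKM and 0.086 with 5 FPKM, and was 0.17 without the 4 libraries. The Bdnf to cortical gene difference passed with a pseudocount of 5 FPKM (-0.49, exact permutation test, adjusted p = 0.0317), at which Bdnf alone differed by 0.038. It did not pass with 0.1 FPKM (-0.50, exact permutation test, adjusted p = 0.143) or without the 4 libraries (-0.37, exact permutation test, adjusted p = 0.4). The difference ran from -0.70 to -0.51 when 1 library was left out, passing without Control 4 (-0.70) and without R6/2 1 (-0.59). Over all genes 795 were called higher and 1449 lower, 1522 and 1136 after protein-coding rescaling, which shifted the median log2 change to 0.093, and 1111 and 1277 after quantile normalization. With the covariate the counts were 119 and 526, with the replicate block 370 and 975, and without the 4 libraries 106 and 457. The untested values of Ntf3 and Ngfr moved to 0.75 and -0.91 with a pseudocount of 0.1 FPKM, and that of Ngfr to -0.09 with 5 FPKM. That of Bdnf was -0.19 without the 4 libraries, which include its lowest controls and highest R6/2 values. Bdnf, Ntf3, Ngfr and Gdnf rest on few fragments.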
